A study of Drosophila melanogaster with 2 samples.

Results

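The vacuolar proton ATPase (V-ATPase) genes of *Drosophila* were compared between *yw* embryos and homozygous *mid* mutant embryos. A gene was taken as a member where its current symbol begins with Vha, or is *ATP6AP2*, and where a probe set of the array carried that symbol alone. Of 34 such genes in a RefSeq gene table, 30 had a named probe set (33 probe sets), out of 10845 genes named on the array. The other 4, *Vha68-1*, *Vha68-2*, *Vha16-3* and *Vha100-3*, were not analysed here. Biotin-labelled RNA of each genotype was hybridized to 1 Affymetrix array. Both genotypes were incubated at 25 °C until 16 h after the eggs were laid. The *yw* stock, mutant for *yellow* and *white*, is the control that the labels give. The study's methods speak of *mid* heterozygotes instead. The *mid* mutants were recognised with a CyO balancer that expresses GFP, and the labels give no allele. Stock background and exact embryo age cannot be told apart from genotype with 1 array each.

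The V-ATPase is a rotary pump that uses ATP to move protons across membranes. Its soluble V1 sector hydrolyses ATP, and its membrane-embedded V0 sector carries the protons. The pump acidifies lysosomes, endosomes and synaptic vesicles, and in insect epithelia such as the Malpighian tubule it sits in the plasma membrane and energises ion transport. Flies carry several paralogs of most subunits. A core set is expressed broadly, while other paralogs are restricted to tissues such as testis, gut or nervous system.

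The values were MAS5 signals, linear intensities that summarise the probe pairs of a probe set. Their median was 150 in *yw* and 43.3 in *mid*, and 9 spiked control probe sets were brighter on the *yw* array by a median factor of 2.76. The *mid* array was multiplied by 3.46 so that both arrays had the same median. This factor is larger than that of each of the 9 spiked controls, which ranged from 2.32 to 3.39. A floor of 97.6, the 40th percentile over the pooled arrays, replaced any lower signal before log2 changes (*mid* over *yw*) were taken. A gene above the floor on at least 1 array was called measured, which held for 7687 genes. Each genotype has a single array, so the differences lack a replicate check, p-values cannot be given, and a call means a size of more than 2-fold. As a scale for technical disagreement, log2 changes of different probe sets of 1 gene had an SD of 0.53 over 287 genes. The probe set of *mid* read 49.3 in *yw* and 56.8 in *mid* embryos, below the floor in each, which leaves the genotype unchecked. Control transcripts were read from their 3′ and 5′ ends, a sign of RNA quality. The 3′ to 5′ ratios were 28.8 in *yw* and 53.5 in *mid* for actin, and 50.8 and 63.3 for eIF-4a. They were 4.52 and 7.43 for 18S rRNA, and 21.6 and 17.3 for GAPDH. The 3′ end thus read several times brighter than the 5′ end on both arrays. Of the 4 ratios, 3 were higher in *mid*. The part of RNA quality in the results below was not tested.

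In the *mid* mutant embryos 1 V-ATPase gene, *Vha36-3*, was lower by more than 2-fold, and none was higher by that much. The other genes of the pump stayed within 2-fold wherever both arrays read above the floor. Of the 30 genes, 23 were measured, 21 of them above the floor on both arrays. The calls were 0 of 23 higher, where 5.66% of all measured genes were, and 1 of 23 lower, where 4.53% were. At 1.5-fold, *Vha44* was higher, and *Vha36-3* and *VhaM9.7-a* were lower, against 16.7% and 12.8% of all measured genes. At 3-fold none was called in either direction, where 1.31% of measured genes were higher and 1.4% lower. The log2 change was larger in size than the SD between probe sets for 4 of 23 genes, compared with 33.6% of measured genes. These were *Vha36-3*, *VhaM9.7-a*, *Vha44* and *Vha100-4*. The median log2 change of the 23 genes was 0.27, where that of all measured genes was 0.06, and 17 of 23 lay above 0, where 54.8% of all measured genes did. Most changes were thus small, positive and under the disagreement between probe sets. Their sign depends on the scaling, as the median was -0.03 with the spiked controls and -1.46 with values as deposited, where 10 and 0 of 24 measured members lay above 0.

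**Figure D1:**
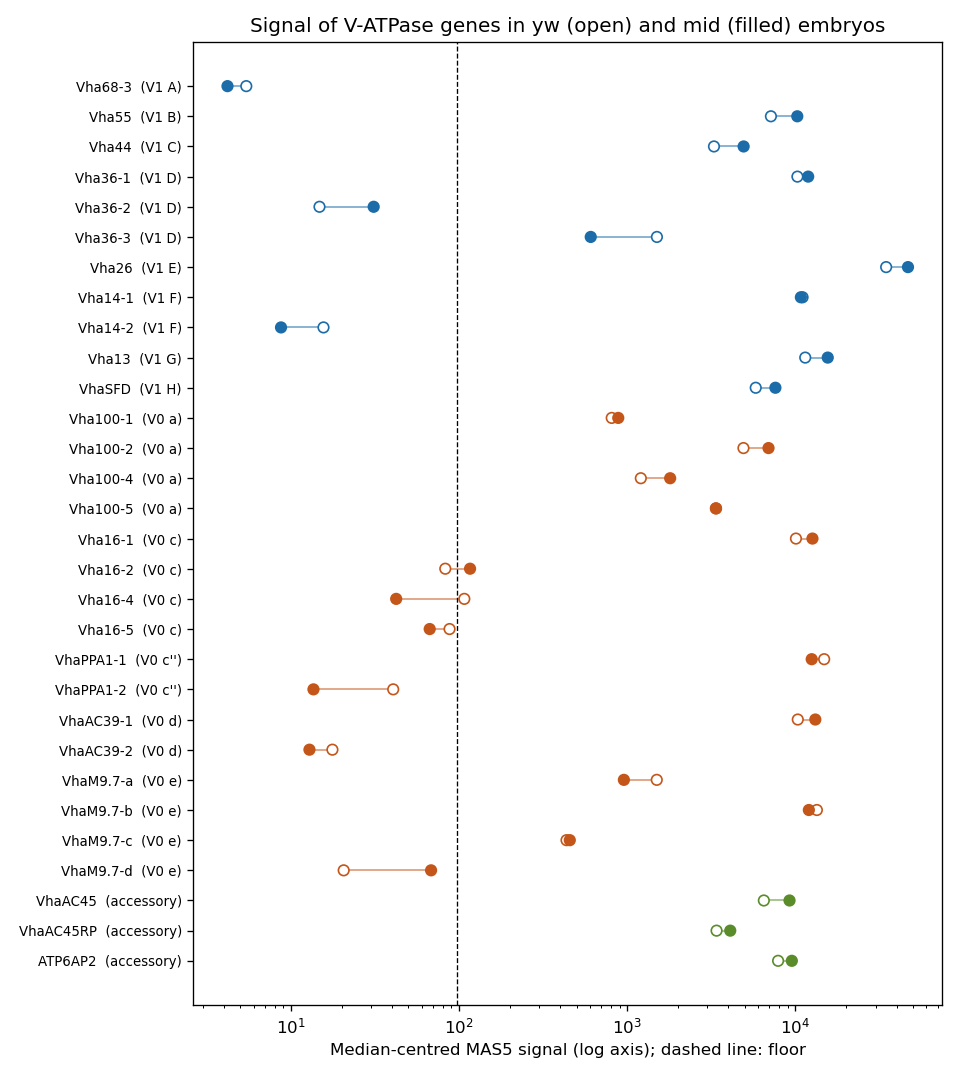
Median-centred MAS5 signal (log axis) of the 30 named V-ATPase genes, 1 row per gene, in *yw* (open) and *mid* (filled) embryos, coloured by sector (blue V1, orange V0, green accessory), with the floor of 97.6 as a dashed line. The 2 points of most bright genes lie close together, *Vha36-3* shows the widest gap of the bright genes, and 7 genes lie below the floor in both genotypes.

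The V1 sector is a ring of alternating A and B subunits around a central shaft, held by peripheral stalks. Subunit A, which holds the catalytic sites, was represented by *Vha68-3* alone, and this gene read 5.43 in *yw* and 4.20 in *mid*, far below the floor. *Vha55*, the single gene of the nucleotide-binding B subunit, read 7151 in *yw* and 10261 in *mid* (log2 change 0.52). Subunit C bridges the peripheral stalks to V0 and leaves the complex when it comes apart. Its gene *Vha44* read 3279 and 4921, the largest positive log2 change of the measured members at 0.59. The E and G subunits form the peripheral stalks. *Vha26* (subunit E) was the brightest member, with 34644 in *yw* and 46708 in *mid* (log2 change 0.43), and *Vha13* (subunit G) read 11441 and 15567 (0.44). *VhaSFD* encodes subunit H, which in yeast silences V1 once it is free of the membrane. One probe set read 5808 and 7604 (0.39) and a dimmer one 2150 and 2757 (0.36), so the pair gave nearly the same change. All 5 of these single-copy genes were higher in *mid* by less than 2-fold.

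Subunits D and F make up the central shaft that turns inside the ring. *Vha14-1* (subunit F) read 11029 in *yw* and 10778 in *mid* (log2 change -0.03), the smallest difference of the V1 genes. Its paralog *Vha14-2* read 15.6 and 8.73, below the floor on both arrays. The 3 genes of subunit D went apart. *Vha36-1*, the broadly expressed one, read 10280 and 11911 (log2 change 0.21), and *Vha36-2* was below the floor with 14.8 and 31.1. For *Vha36-3* the *yw* array gave 1501 and the *mid* array 607, a log2 change of -1.31 or 2.47-fold lower. Of all measured genes, 2.34% had a more negative change. Among the genes of log2 signal 9 to 10, where *Vha36-3* lies, the 5th percentile of the change was -0.90 over 1188 genes. *Vha36-3* was called lower under each scaling and floor tried, with a log2 change between -1.63 and -1.31 apart from values as deposited (-3.10). It rests on 1 probe set and 1 array per genotype.

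**Figure D2:**
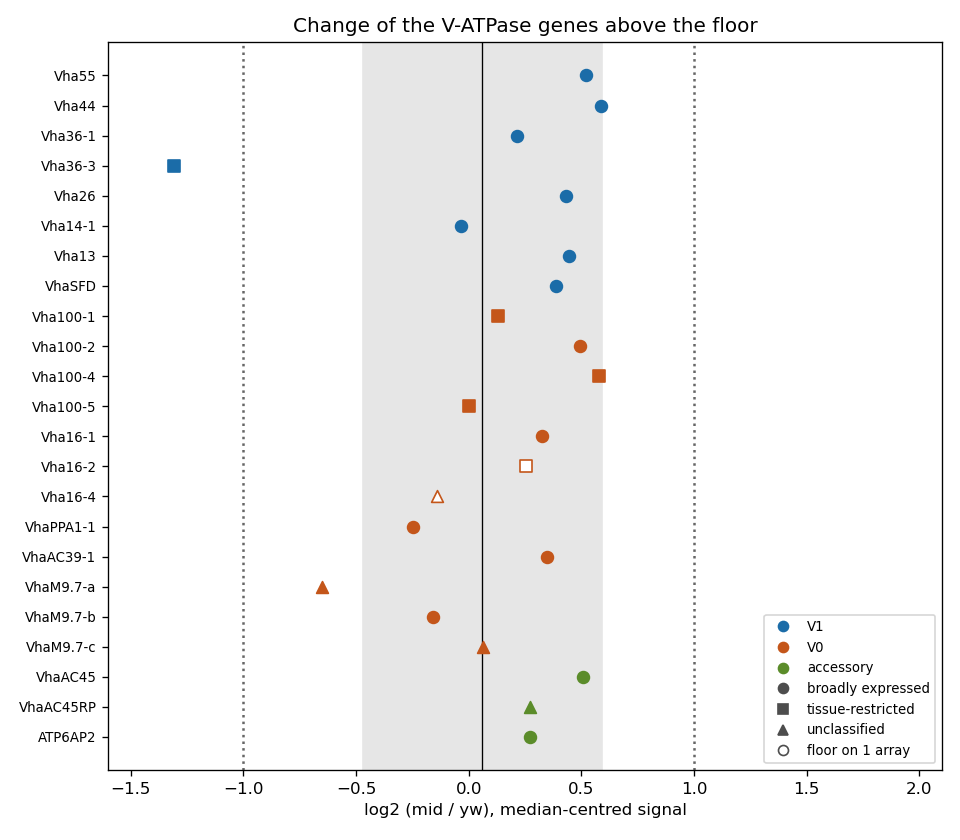
log2 change (*mid* over *yw*, median-centred signal) of the 23 measured V-ATPase genes, coloured by sector and with marker shape by expression class, open where 1 array was at the floor. The vertical line is the median of all measured genes (0.06), the grey band that median plus or minus the SD between probe sets of a gene (0.53), and dotted lines mark 2-fold. *Vha36-3* alone lies beyond 2-fold, and *VhaM9.7-a* is the other gene outside the band.

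In the V0 sector, protons cross between the a subunit and a rotating ring of c and c″ subunits. The a subunits also decide where in the cell the pump sits, and all 4 measured a genes were above the floor on both arrays. *Vha100-2*, the broadly expressed one, read 4909 in *yw* and 6921 in *mid* (log2 change 0.50). *Vha100-4* read 1204 and 1800 (0.58). *Vha100-1*, which acts in synaptic vesicles and endosomes of neurons, read 809 and 884 (0.13), and *Vha100-5* read 3366 and 3374 (0.00), almost the same on both arrays. *Vha100-2* and *Vha100-4* are neighbours on the chromosome with no protein-coding gene between them, and both were higher in *mid* by less than 2-fold.

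Among the genes of the ring, *Vha16-1* (subunit c) read 10075 in *yw* and 12629 in *mid* (log2 change 0.33) by the brighter of its probe sets. The dimmer one read 44.3 and 72.2, below the floor on both arrays, so that set does not check the change. The c paralogs were all dim. *Vha16-2* lay under the floor in *yw* but read 116 in *mid*, at least 1.19-fold higher. It shares a former gene model name with its neighbour *Vha16-3*, and the files do not say whether the probe set tells them apart. *Vha16-4* read 107 in *yw* and fell short of the floor in *mid* embryos (1.10-fold lower or more), and *Vha16-5* was below the floor with 87.8 and 66.9. *VhaPPA1-1* (subunit c″) read 14826 and 12501 (log2 change -0.25), while a dimmer set gave 301 and 285 (-0.08), lower in *mid* by both but well under the SD between probe sets. *VhaPPA1-2*, which lies 1 protein-coding gene away, read 40.6 and 13.6, below the floor on both arrays.

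Subunit d joins the ring to the central shaft, and subunit e is a small membrane protein of the sector. *VhaAC39-1* (subunit d) read 10331 in *yw* and 13136 in *mid* (log2 change 0.35), while its paralog *VhaAC39-2* was below the floor with 17.7 and 12.9. Of the 4 e genes, *VhaM9.7-b*, the broadly expressed one, read 13419 and 12021 (-0.16), and *VhaM9.7-c* read 435 and 455 (0.06). *VhaM9.7-a* read 1498 and 955, a log2 change of -0.65 or 1.57-fold lower, the second lowest of the measured members. *VhaM9.7-d* was below the floor with 20.6 and 68.2. The 3 measured e genes thus lay between -0.65 and 0.06.

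The accessory proteins travel with V0 and take part in its assembly. *VhaAC45* read 6491 in *yw* and 9226 in *mid* (log2 change 0.51). *VhaAC45RP*, named as a related protein, read 3398 and 4097 (0.27), and *ATP6AP2*, the fly counterpart of the prorenin receptor, read 7891 and 9521 (0.27). All 3 were higher in *mid* by less than the SD between probe sets, and *VhaAC45RP* and *ATP6AP2* lay below 0 with the spiked controls.

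Set side by side, the V1 genes had a median log2 change of 0.41 (8 measured of 11 named) and the V0 genes of 0.10 (12 measured of 16 named), a difference of 0.31. The difference was 0.16 with the accessory genes counted as V0, and also 0.16 without the *VhaM9.7* genes. In both cases the V0 median was the value of *Vha16-2* (0.25), which counts as measured through the *mid* array alone. Over genes above the floor on both arrays, in the sectors as first drawn, the difference was 0.31. Among broadly expressed genes alone the medians were 0.43 for V1 (7 genes) and 0.33 for V0 (5 genes), a difference of 0.11. With 1 array per genotype these differences were not tested. The sectors overlapped widely, with V1 genes between -1.31 and 0.59 and V0 genes between -0.65 and 0.58.

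Broadly expressed and tissue-restricted paralogs were told apart from background knowledge of their expression, not from these arrays, and 5 genes were left unclassified. Of the 14 broadly expressed genes, all were above the floor on both arrays, at percentile 95.0 or higher of all probe set signals in *yw* and 96.1 or higher in *mid*. The restricted *Vha100-5* (95.1 in *yw* and 94.8 in *mid*) and the unclassified *VhaAC45RP* (95.2 and 95.5) lay close to them. Of 11 tissue-restricted genes, 6 were below the floor on both arrays, 4 (*Vha36-3*, *Vha100-1*, *Vha100-4* and *Vha100-5*) were above it on both and *Vha16-2* was above it in *mid* only. Probe sets differ in how strongly they hybridize, so a percentile is no measure of RNA amount between genes. In bulk RNA, fewer cells of a type and less RNA per cell cannot be told apart. The median log2 change was 0.37 for the broadly expressed genes, with a range from -0.25 to 0.59. It was 0.13 for the 5 measured restricted genes, with a range from -1.31 to 0.58, and 0.19 without *Vha36-3*. Over the 4 restricted genes above the floor on both arrays it was 0.07, as *Vha16-2* counts as measured through the *mid* array alone. The difference between the classes was 0.24, or 0.18 without *Vha36-3*, and was not tested. The values without *Vha36-3* rest in part on *Vha16-2* (0.25), so they do not show what *Vha36-3* adds. Leaving out both genes, the restricted median was the value of *Vha100-1* (0.13). Of 7 testis germ line markers, 6 were below the floor on both arrays, and *Mst84Da* read 118 in *yw* and 51.2 in *mid*. With the floor removed, *VhaM9.7-d* and *Vha36-2* would be called higher and *Vha16-4* and *VhaPPA1-2* lower, all on signals of at most 107.5 on both arrays.

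**Figure D3:**
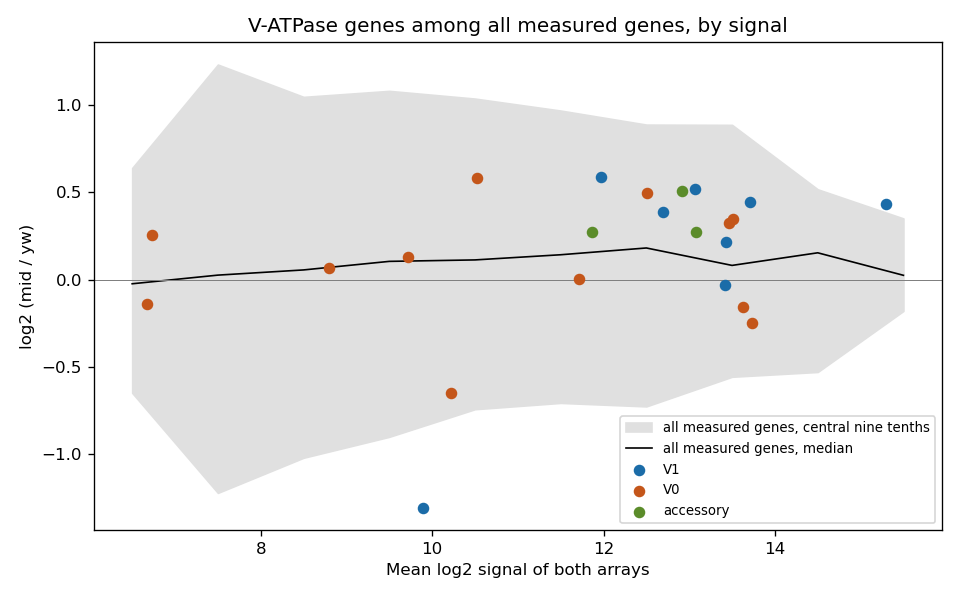
log2 change (*mid* over *yw*) against mean log2 signal of both arrays for the 23 measured V-ATPase genes, coloured by sector, over the median (line) and the 5th to 95th percentile (grey) of all measured genes in bins 1 unit wide. Most members lie at the bright end, *Vha36-3* (-1.31) lies below the grey area, and *Vha26* (0.43) lies just above it, where the 95th percentile is 0.35 over 31 genes.

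Related gene lists gave a setting for these values, and they were chosen with earlier results of these data known. The mitochondrial ATP synthase, an F-type rotary enzyme of related build, had 16 named and 15 measured genes, with 0 called higher and 0 lower. Its median log2 change was 0.12, or 0.15 over the 14 genes above the floor on both arrays. *blw*, its alpha subunit, read 24543 in *yw* and 29155 in *mid*, and *ATPsynbeta* read 3524 and 4508. With 5.66% of all measured genes called higher and 4.53% lower, such counts are near the background for lists of this size. Of 17 proton exchanger and ion transport genes, all measured, 2 were called higher and 0 lower (5.66% and 4.53% of all measured genes), with a median of 0.43. These were the potassium channel gene *Irk3* (128 and 353, 2.75-fold) and the sodium proton exchanger gene *Nhe3* (206 and 460, 2.23-fold). *Nha1*, a cation proton antiporter gene, read 1818 and 2196. *Irk3* was within 2-fold with the floor at the 60th percentile, and *Nhe3* with the spiked controls.

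The lysosome is a compartment that the pump acidifies. Of 17 measured genes of lysosomal hydrolases and membrane proteins (19 named), 2 were called higher and 3 lower (5.66% and 4.53% of all measured genes), with a median log2 change of -0.11. *cathD*, which encodes the aspartic protease cathepsin D, read 1524 in *yw* and 227 in *mid*, 6.70-fold lower. The lysosomal mannosidase genes *LManVI* (8699 and 3845, 2.26-fold) and *LManV* (9322 and 4542, 2.05-fold) were lower, while *LManII* (448 and 1193, 2.66-fold) was higher. *Npc1a*, a sterol transporter gene, read 320 and 703 (2.20-fold higher) and was within 2-fold with the spiked controls. *CtsL1*, *CtsB* and *Lamp1* had log2 changes of -0.11, -0.14 and -0.25, while *CtsF*, *Sap-r* and *Swim* had 0.03, 0.15 and 0.97. Of the 17 genes, 8 lay above 0 and 9 below. *Ppt1*, counted among those below, was above the floor in *yw* only (153 in *yw* and 49.5 in *mid*). Over the 16 genes of this list above the floor on both arrays, the median was -0.05. The Rag and Ragulator proteins pass the pump's signal of amino acid supply to Tor. Of their 5 measured genes (*Lamtor1*, *Lamtor3*, *Lamtor4*, *Lamtor5* and *RagC-D*) none was called higher or lower (5.66% and 4.53% of all measured genes). All 5 lay below 0, where 54.8% of all measured genes lay above it, with *RagC-D* at 2305 and 1802. *raptor*, a Tor complex gene of the same list, read 210 and 247 (log2 change 0.23), and the median of the 6 genes was -0.35. *Mitf*, a transcription factor gene of the lysosomal program, was below the floor on both arrays (31.8 and 0.84). Of 11 measured genes of HOPS, CORVET and endosomal sorting, none was called higher or lower (5.66% and 4.53% of all measured genes). Their median was 0.28, or 0.26 over the 10 genes above the floor on both arrays. Among regulators of V-ATPase assembly, *Rbcn-3B* was below the floor (42.4 and 88.8) and *mtd*, a TLDc domain gene, read 444 and 727.

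In synaptic vesicles the proton gradient drives the loading of transmitters. Of 6 measured genes of vesicle loading and release (8 named), *Vmat*, the monoamine transporter gene, was called higher (1497 and 3686, 2.46-fold) and none lower (5.66% and 4.53% of all measured genes), with a median of 0.72. *Vmat* was within 2-fold with the spiked controls. *lap* of this list read 79.9 in *yw* and 160 in *mid*, so it entered the 6 through the *mid* array only. Leaving *lap* out, the median of the remaining 5 was also 0.72. *Vha100-1*, the a subunit of neurons, had a log2 change of 0.13. Markers of tissues that use the pump also differed between the arrays. The summed signal of 5 neuron markers was 977 in *yw* and 1957 in *mid*, with 3 above the floor on each array and *brp* and *para* below it on both. The sum of 5 epidermis markers, all above the floor, was 5605 and 11031. The sum of 4 midgut markers, all above the floor, was 1846 and 2085. That of 5 Malpighian tubule markers was 1796 and 1437, with 4 above the floor in *yw* and 3 in *mid*. *ZnT35C*, the brightest of these 5, read 1104 and 684, and *ct* was above the floor in *yw* only. *tsh* (log2 change 0.57) and *NaPi-T* (0.13) of this list lay above 0. The sum of 2 muscle markers, both above the floor, was 79331 and 87143. Of 18 measured markers of these tissues, 5 were called higher and none lower (5.66% and 4.53% of all measured genes). The 5 were *fne*, *elav*, *srp*, *Cpr65Ea* and *serp*, and *fne* alone of them stayed beyond 2-fold with the spiked controls. Markers of the same lists also lay below 0. They were *grh* of the epidermis (log2 change -0.26), *GATAe* of the midgut (-0.41), and *ct* (-0.65) and *ZnT35C* (-0.69) of the Malpighian tubule. With the floor at the 60th percentile the log2 changes of *elav* and *srp* were 0.10 and 0.24. The part of tissue composition in the values of the V-ATPase genes was not tested.

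**Figure D4:**
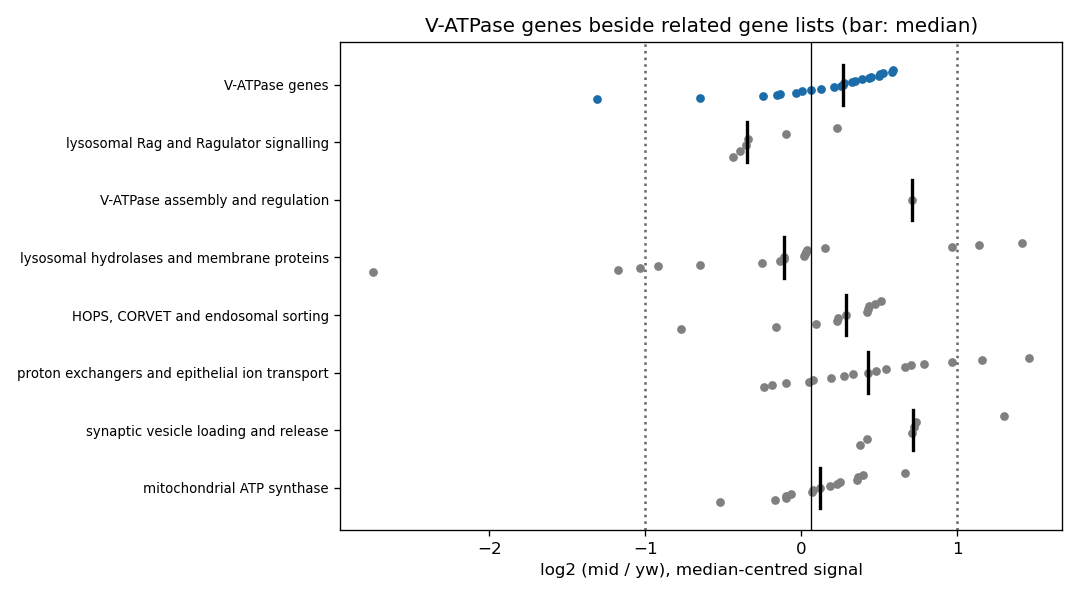
log2 change (*mid* over *yw*, median-centred signal) of the 23 measured V-ATPase genes (blue) and of the measured genes of 7 related lists (grey), 1 point per gene, with the list median as a black bar, the median of all measured genes (0.06) as a line and 2-fold as dotted lines. The V-ATPase genes cluster around a median of 0.27 with 1 gene beyond 2-fold, while the lysosomal list spreads from -2.75 to 1.41.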

How the data were processed

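RNA of *yw* embryos and of homozygous *mid* mutants was hybridized to Affymetrix arrays, 1 per genotype. The authors deposited signal intensities on a linear scale, made with MAS5 according to the submitters' processing notes. The MAS5 version and scaling target are not stated in the sources read for this work. Of 14010 probe sets, 12444 carried 1 gene symbol in the platform annotation, 327 carried several, and for 1239 no symbol was used. Outdated symbols were replaced by way of a RefSeq gene table (genome Release 6). Both arrays were given the same median, signals under the 40th percentile of the pooled arrays were raised to it, and a gene was read from the brightest of its probe sets. The genes named are the members, the most changed called genes of each list, and *mid*, with other list genes added after their values were seen. Members and lists were chosen with earlier results of these data known. No test was possible, and the number of arrays limits the precision. The computation was checked on simulated data. Software was Python 3.11.15 with numpy (2.4.6), pandas (2.3.3), statsmodels (0.14.6), matplotlib (3.10.9). Alternatives were 5 other scalings, 3 other floors, 2 other fold thresholds and another summary of probe sets. Sequences of the genes were not used here.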

Additional observations from a re-analysis of the deposited data

How the results depend on the processing

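The median log2 change of all measured genes, 0.06 after median centring, was -1.52 with values as deposited, -0.24 with the spiked controls and -0.05 where the means of the central 96% of signals were made equal. That of the V-ATPase genes was -1.46, -0.034 and 0.16 under these settings, and 0.15 with both quantile normalisation and loess (span 0.3). It lay above the median of all measured genes under each setting, by 0.06 (as deposited) to 0.22. The count of V-ATPase genes called lower was 22 with values as deposited, 2 with the floor at the 20th percentile, 3 with no floor, 2 at 1.5-fold and 0 at 3-fold. The count called higher was 1 with the floor at the 20th percentile, 2 with no floor and 1 at 1.5-fold. The difference of V1 and V0 medians was 0.084 with values as deposited and otherwise between 0.16 and 0.35. That of broadly expressed and restricted genes was 0.013 as deposited, 0.74 with no floor, where dim paralogs enter, and otherwise between 0.15 and 0.36. Neither a floor at the 60th percentile nor taking the median of a gene's probe sets changed a count. *Vha36-3*, the only member called, kept its direction under each setting. No paired analysis was possible because each genotype has 1 array. Dim paralogs near the floor have only a bound or no fold.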
